A study of Mus musculus with 48 samples.

Results

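The genes described here are 32 targets of the transcription factor p53: its own gene *Trp53* and its inhibitor *Mdm2*, 5 genes of arrest and growth control (*Cdkn1a*, *Btg2*, *Ccng1*, *Plk2*, *Plk3*), 11 of apoptosis (*Bax*, *Bbc3*, *Pmaip1*, *Apaf1*, *Fas*, *Tnfrsf10b*, *Eda2r*, *Perp*, *Phlda3*, *Aen*, *Ei24*), 5 of DNA repair (*Ercc5*, *Polk*, *Rrm2b*, *Ddb2*, *Xpc*) and 9 of the stress response (*Sesn1*, *Sesn2*, *Trp53inp1*, *Dram1*, *Gdf15*, *Fdxr*, *Zmat3*, *Pml*, *Rps27l*). They were chosen by symbol from general knowledge of the p53 response, with earlier results of these data known. They were kept where at least 3 of the 48 libraries held 1 FPKM or more. FPKM is a count of fragments scaled to the length of the transcript and to the mapped fragments of the library. All 32 passed, as did 12738 of the 24010 genes in the table. The members nearest to this limit were *Dram1*, which reached 1 FPKM in 29 libraries, *Ddb2* in 33 and *Fas* in 37. RNA was sequenced from mouse embryonic fibroblasts (MEFs) of transgenic mice carrying *Col1a1*-4F2A, a cassette of *Oct4*, *Sox2*, *Klf4* and *c-Myc* (OSKM) switched on by doxycycline (Dox) through *Rosa26*-M2rtTA, and an *Oct4*-GFP reporter. The groups were cells overexpressing *Mettl14* (*Mettl14* OE), cells overexpressing *Mettl3* (*Mettl3* OE) and cells with an empty vector (Control OE), each on days 3, 6, 9, 12 and 15 of OSKM induction in medium with LIF, and MEFs that were not induced (MEF), with 3 libraries a group. All groups, MEF included, carry the same transgenes, and every induced culture is a mixture in which reprogramming and other cells were sequenced together. In such bulk samples, fewer cells that express a gene and less RNA per cell cannot be told apart. Nothing in the sources says whether the 3 libraries of a group came from separate cultures, so the p-values here speak only of the spread among the libraries sequenced.

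p53 is held at a low level by MDM2, a ubiquitin ligase that marks it for destruction, and *Mdm2* is itself switched on by p53, which closes a feedback loop. When DNA damage or oncogene activity, including that of the reprogramming factors, frees p53 from MDM2, the protein binds DNA and raises *Cdkn1a*, which encodes the cyclin-dependent kinase inhibitor p21, together with genes of apoptosis and repair. p53 and p21 are known as barriers to the reprogramming of fibroblasts. Because p53 is controlled mainly as a protein, the RNA of *Trp53* says little about p53 activity, which the sequencing of RNA does not measure.

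p53 binds as a tetramer to a pair of half-sites, each made of 3 purines, a C, A or T at 2 positions, a G and 3 pyrimidines, and the sequences below show where such half-sites stand in the promoters of the genes described. RefSeq promoter windows of 300 bases on GRCm38.p6 (250 before the start of the transcript, 50 after it) were at hand for 24 of the 32 members, and 11 of these (45.8%) held at least 1 exact half-site, against 2582 of 27025 genes (9.55%). The half-site reads the same on both strands. A full site, 2 half-sites with at most 13 bases between them, was found in 20 of the 27025 genes (0.074%) and in 1 member, *Cdkn1a*. Capitals mark the half-sites, *Cdkn1a* is shown with its pair and *Rps27l* with the farther of its 2 half-sites.
Cdkn1a, chr17:29090886-29090957, plus strand: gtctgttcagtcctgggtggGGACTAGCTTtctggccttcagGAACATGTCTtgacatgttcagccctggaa
Mdm2, chr10:117710925-117710954, minus strand: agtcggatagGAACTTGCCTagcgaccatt
Ccng1, chr11:40755452-40755481, minus strand: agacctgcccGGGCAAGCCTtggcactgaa
Trp53, chr11:69580274-69580303, plus strand: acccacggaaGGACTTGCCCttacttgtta
Bax, chr7:45467080-45467109, minus strand: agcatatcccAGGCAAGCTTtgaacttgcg
Aen, chr7:78895927-78895956, plus strand: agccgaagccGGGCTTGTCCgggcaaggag
Ei24, chr9:36797325-36797354, minus strand: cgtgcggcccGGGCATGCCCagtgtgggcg
Polk, chr13:96519399-96519428, minus strand: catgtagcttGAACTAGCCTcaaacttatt
Sesn1, chr10:41887256-41887285, plus strand: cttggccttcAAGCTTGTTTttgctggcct
Pml, chr9:58249911-58249940, minus strand: cccgcatgccGGGCTTGTTTacttgcttgt
Rps27l, chr9:66946193-66946222, plus strand: ctttgggctcGGGCTTGCTTtccttcaggc
The half-sites began 73 bases before the start in *Cdkn1a*, with 12 bases between the pair, 186 before it in *Mdm2*, 185 in *Ccng1*, 201 in *Bax* and 10 bases after it in *Aen*. Of the genes shown, *Cdkn1a*, *Aen*, *Polk*, *Sesn1* and *Rps27l* had 2 windows each. Their positions are counted from the start of 1 window, which need not be the main start of the gene. A match describes these letters only, and many p53 sites lie outside such windows.

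The libraries held an estimated 14.1 to 41.0 M fragments each (median 25.3), and log2(FPKM + 1) correlated at 0.960 to 0.982 within groups. *Mettl14* stood at 184 to 476 FPKM in *Mettl14* OE, against 4.30 to 7.47 FPKM in the other 33 libraries, and *Mettl3* at 1078 to 2919 FPKM in *Mettl3* OE, against 3.33 to 6.79 FPKM elsewhere, as labelled. The values stand in 3 tables (MEF with day 3, days 6 with 9, days 12 with 15), in which the median sum of FPKM over all genes was 234441, 392245 and 432182, and were treated as quantified separately. Tests were therefore made within a table, with limma on log2(FPKM + 1), Benjamini-Hochberg adjustment over all genes tested and a call at an adjusted p under 0.05. On this scale the change of genes near or under 1 FPKM is understated.

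Between MEF and day 3 of induction most p53 targets rose. Beside OSKM, Control OE on day 3 had the empty vector, Dox and medium with LIF. The parts of these in the changes from MEF cannot be told apart. Of the 30 members tested between Control OE on day 3 and MEF, 24 rose (80%) and 4 fell (13.3%), against 36.5% and 18% of all 10318 genes tested. At a fold change of at least 1.5 as well, 17 rose and 1 fell, against 15.4% and 8.53% of all genes. The median log2 change of the members was 0.70, against 0.12 for all genes. *Trp53* itself went the other way: its libraries held 13.4, 12.6 and 14.6 FPKM on day 3, against 16.7, 17.6 and 17.7 FPKM in MEF, with no overlap. The log2 change was -0.34 ± 0.077 (SE, adjusted p = 0.00225, limma). *Mdm2*, its inhibitor and target, held 61.7, 64.5 and 64.1 FPKM on day 3, against 30.2, 31.7 and 31.7 FPKM in MEF, a log2 change of 1.00 ± 0.062.

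The genes of arrest and growth control included 4 that rose and 1 that fell. *Cdkn1a* had 66.0, 61.3 and 70.7 FPKM on day 3, against 16.3, 17.6 and 17.9 FPKM in MEF (log2 change 1.87 ± 0.078, adjusted p = 2.18e-10, limma). *Ccng1*, which encodes the cyclin-like protein cyclin G1, was the most abundant member on day 3 with 135, 143 and 151 FPKM, against 46.2, 49.5 and 49.9 FPKM in MEF. *Btg2*, an antiproliferative gene, had 19.3, 20.2 and 20 FPKM, against 5.69, 6.11 and 6.45 FPKM in MEF. The log2 changes of *Ccng1* and *Btg2* were 1.54 and 1.56, and in none of these 3 genes did the groups overlap. *Plk3*, a polo-like kinase of the stress response, fell by 0.30 on the log2 scale.

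Among the death receptors and apoptosis genes, 9 of 10 tested rose and none fell. Of these, *Perp* and *Pmaip1* passed the filter on low values through day 3 alone, so their entry already rested on a higher level on day 3. *Perp*, which encodes a membrane protein of desmosomes that is also needed for p53-driven apoptosis, had the largest change of all members. It held 52.6, 50.9 and 55.7 FPKM on day 3, against 0.665, 0.442 and 0.576 FPKM in MEF (log2 change 5.12 ± 0.070, adjusted p = 1.06e-14, limma). *Phlda3*, an inhibitor of the kinase AKT, had 58.0, 50.2 and 56.0 FPKM, against 16.1, 18.5 and 19.1 FPKM in MEF. *Eda2r*, a receptor of the TNF receptor family, had 13, 14.7 and 13.7 FPKM, against 4.79, 4.62 and 4.07 FPKM in MEF. The groups did not overlap in these 3 genes, and *Phlda3* and *Eda2r* changed by 1.56 and 1.43 on the log2 scale. The other 6 that rose changed by 0.35 (*Aen*, an exonuclease gene) to 1.19 (*Ei24*) on that scale, with *Bax*, *Bbc3* and *Pmaip1*, which drive the mitochondrial pathway of cell death, at 0.70, 0.41 and 0.74. *Apaf1*, the scaffold of the apoptosome, was not called (log2 change -0.11). *Fas* was too low for the test, with 0.508, 0.894 and 1.33 FPKM on day 3, against 0.165, 0.730 and 0.0699 FPKM in MEF, with overlap.

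All 4 tested genes of DNA repair and nucleotide supply rose. *Ercc5*, a nuclease of nucleotide excision repair, had 5.92, 6.51 and 6.45 FPKM on day 3, against 2.66, 2.78 and 2.95 FPKM in MEF (log2 change 0.94). *Polk*, a polymerase that copies past lesions, had 4.41, 5.22 and 6.17 FPKM, against 2.76, 3.32 and 3.11 FPKM in MEF (0.62). *Rrm2b*, the p53-induced subunit of ribonucleotide reductase, had 1.52, 1.83 and 1.73 FPKM, against 1.03, 1.05 and 1.06 FPKM in MEF (0.40). *Xpc*, a damage sensor of the same repair pathway, rose by 0.36 on the log2 scale, though not without MEF replicate 1 or Control OE day 3 replicate 3 (adjusted p = 0.0699 and 0.0524). *Ddb2*, another damage sensor, was too low for the test, with 0.388, 0.385 and 0.425 FPKM on day 3, against 0.337, 0.25 and 0.5 FPKM in MEF. In *Ercc5*, *Polk* and *Rrm2b* the lowest library of day 3 lay above the highest of MEF.

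Of the 9 genes of stress, metabolism and autophagy, 6 rose and 2 fell. *Gdf15*, a secreted stress cytokine, held 5.26, 4.29 and 5.20 FPKM on day 3, against 0.0808, 0.0399 and 0.0518 FPKM in MEF (log2 change of FPKM + 1 of 2.48 ± 0.095, adjusted p = 9.24e-11, limma). *Trp53inp1*, which promotes p53 phosphorylation and autophagy, had 4.81, 5.20 and 5.24 FPKM, against 2.68, 2.12 and 2.2 FPKM in MEF (0.87). *Rps27l*, a ribosomal protein gene with the close paralog *Rps27* that could share its reads, had 9.57, 13.2 and 12.6 FPKM, against 9.47, 5.43 and 4.93 FPKM in MEF (0.79), and its lowest library of day 3 lay barely above the highest of MEF. *Pml*, the gene of the nuclear bodies, fell by 0.22 on the log2 scale, a call lost in 4 of 6 refits without 1 library, and the call of *Fdxr* (0.35), which rose, was lost in 3. *Dram1*, a lysosomal gene of autophagy, had 0.65, 0.733 and 0.485 FPKM on day 3, against 1.51, 1.42 and 1.71 FPKM in MEF (-0.65). It passed the filter on low values through the 3 MEF libraries alone and was not tested in the refits without one of them, so its entry already rested on a higher level in MEF. *Sesn1* also entered through MEF alone, and *Pmaip1*, *Perp* and *Gdf15*, under 1 FPKM in each MEF library, through day 3 alone. Among the 25 members that entered through neither side alone, 21 rose and 3 fell. The share of all genes under the same restriction is not given, and the shares above were taken without it. *Sesn1* was not called (log2 change -0.08).

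**Figure D1:**
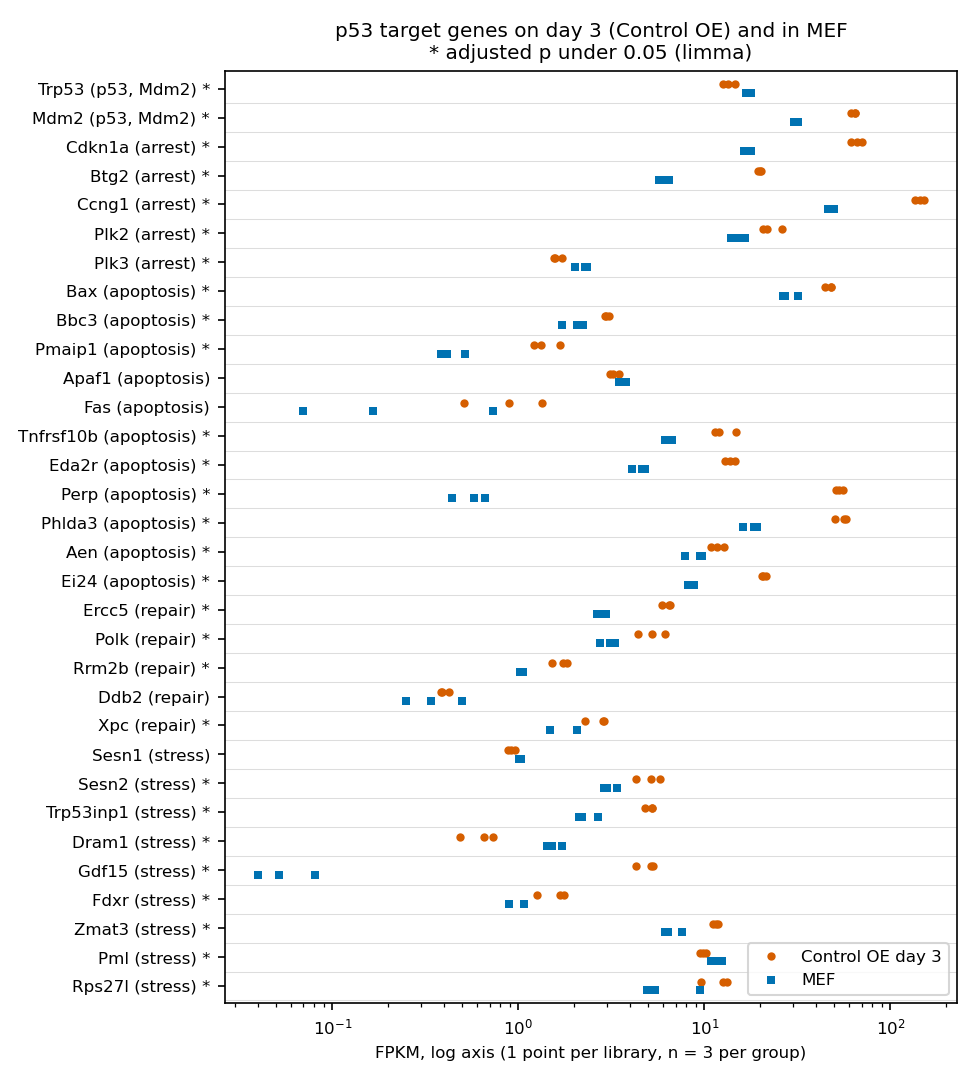
FPKM of the 32 members on a log axis in each library of Control OE on day 3 (circles) and MEF (squares), ordered by role, with an asterisk at a limma adjusted p under 0.05. *Perp* at 50.9 to 55.7 FPKM on day 3 and 0.442 to 0.665 FPKM in MEF, and *Gdf15* at 4.29 to 5.26 and 0.0399 to 0.0808 FPKM, stand farthest apart.

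The rises rested little on single settings, the falls more so. With another scaling between libraries (median-ratio or quantile), 22 of the 24 rises and all 4 falls kept their call, *Xpc* and *Fdxr* losing theirs under quantile normalization, and 24 of the 28 calls held in each of the 6 refits without 1 library. Of the 4 falls, 2 were tested and held in all 6 refits. *Dram1* was called in the 3 refits that tested it, and without MEF replicate 1 or MEF replicate 3 the number that fell was 2. *Pml* also lost its call without a filter on low values, with a replicate block and with all 48 libraries in the fit. The markers of cell types moved in the same comparison: 8 of the 10 fibroblast markers fell, their summed level being 93.5 to 94.4 FPKM on day 3 and 227 to 240 FPKM in MEF, while the 10 epithelial markers summed to 30.9 to 41.3 FPKM on day 3 and 3.80 to 5.36 FPKM in MEF, with no marker of either list at 0 in all 3 libraries of a group. Of the 3 epithelial markers tested, *Krt8* and *Cdh1* rose (log2 changes 4.34 and 1.49) and *Krt18* fell (-0.59). *Perp* rose with them, and what part the change of cell types had in its rise was not tested.

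Other genes of the pathway were taken from 3 lists. Their counts stand beside 36.5% of all genes that rose and 18% that fell in this comparison. These shares belong to the fit without another scaling. The counts below from other scalings have no share of all genes beside them. Of 24 further p53 targets, 21 were tested, and 14 rose and 6 fell, with *Ephx1* (log2 change 3.09), *Epha2* (2.04) and *Bid* (1.63) changing most. Of 24 regulators of p53, 19 were tested, and 5 rose and 4 fell (7 fell with quantile normalization). *Cdkn2a*, whose product ARF inhibits MDM2 and whose locus also encodes p16, rose by 0.68, and the ubiquitin ligase genes *Trim24* and *Rchy1* rose by 0.69 and 0.65. Of 19 cell-cycle genes that p21 is known to repress, 18 were tested, and 1 rose and 8 fell (13 fell with either of the other scalings), among them *E2f1* (-0.61), *Bub1b* (-0.58) and *Aurkb* (-0.54). The medians of these lists were 0.50, 0.07 and -0.19, against 0.12 for all genes.

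Across the days the members separated into a few courses. In Control OE the mean FPKM was highest on day 6 for 19 members, on day 15 for 9, on day 3 for *Mdm2* and *Ccng1*, on day 9 for *Btg2* and on day 12 for *Trp53inp1*, and in MEF for none. The order across tables depends on the scale: after quantile normalization of all 48 libraries, a scale chosen after seeing the data, 8 members were highest on day 6, 11 on day 3, 5 on day 15, 4 on day 12 and 4 (*Plk3*, *Apaf1*, *Dram1* and *Pml*) in MEF. The members highest on day 6 on both scales were *Trp53*, *Cdkn1a*, *Bax*, *Bbc3*, *Phlda3*, *Ei24*, *Zmat3* and *Rps27l*, and *Mdm2* and *Ccng1* were highest on day 3 on both.

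*Cdkn1a* averaged 66.0, 227, 166, 155 and 160 FPKM in Control OE on days 3, 6, 9, 12 and 15. *Mdm2* took another course, at 63.4, 36.0, 25.8, 23.3 and 20.1 FPKM on the same days. *Pmaip1*, which encodes the BH3-only protein NOXA, averaged 1.41, 4.89, 6.64, 11.8 and 12.8 FPKM, higher on each later day. *Sesn1*, a regulator of mTORC1, did likewise, at 0.918, 3.77, 4.68, 5.33 and 7.25 FPKM. The largest ratio of day 6 to day 3 belonged to *Rps27l*, with 192 FPKM on day 6 and 11.8 FPKM on day 3, a ratio of 16.3, where the median gene at 1 FPKM or more on both days had a ratio of 2.07 and the median member 2.03. Neither the join from day 3 to 6 nor that from day 9 to 12 was tested.

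**Figure D2:**
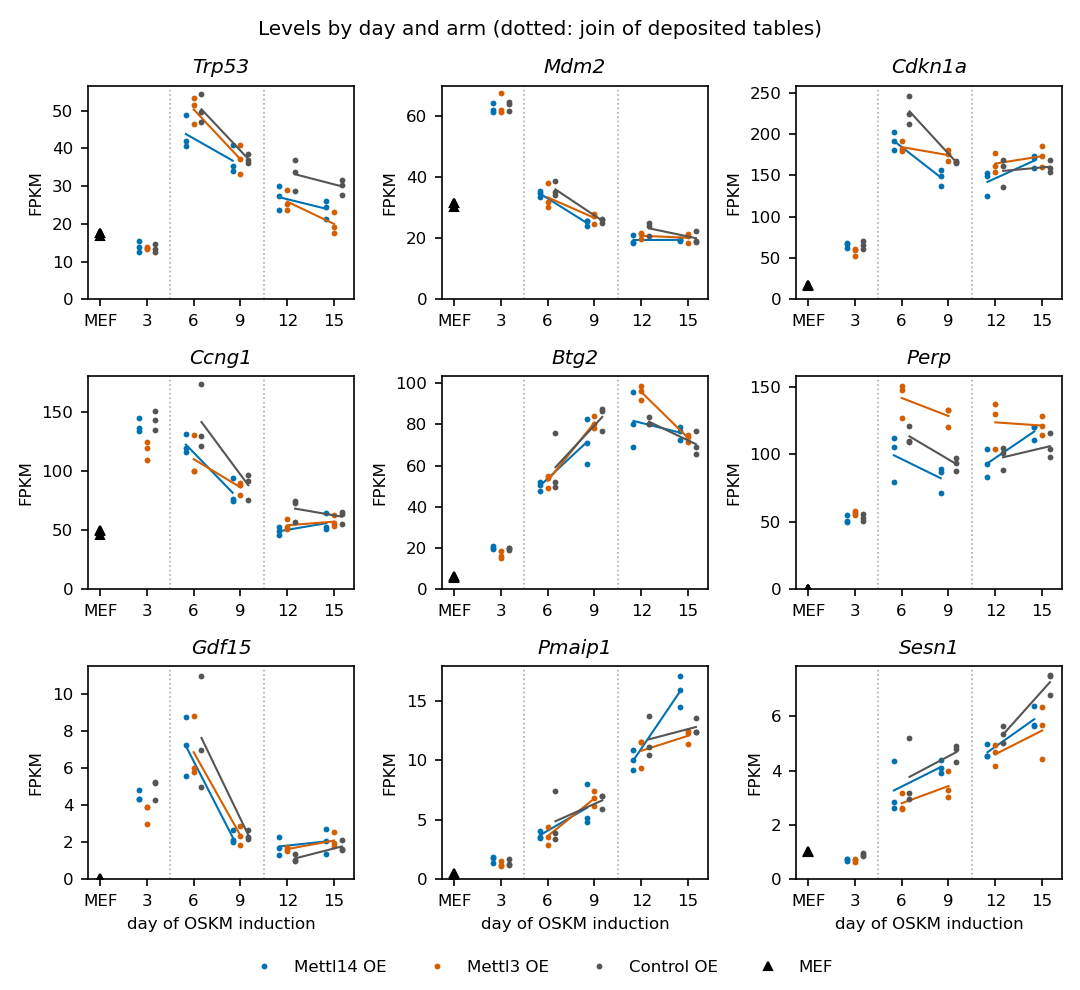
FPKM of 9 members by day of OSKM induction in *Mettl14* OE, *Mettl3* OE, Control OE and MEF, 1 point per library with lines through the means of days in the same table, and dotted lines at the joins of tables. *Mdm2* is highest on day 3, *Cdkn1a* on day 6, and *Pmaip1* and *Sesn1* on day 15.

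Between days 6 and 9 a large share of the members fell. In Control OE 15 of 32 fell (46.9%) and 1 rose (3.12%), against 26.0% and 14.0% of 12053 genes. In *Mettl14* OE 15 fell and 4 rose, against 21.7% and 16.2% of all genes, and in *Mettl3* OE 11 fell and 3 rose, against 24.2% and 21.2%. The median log2 change of the members was -0.24 in *Mettl14* OE, -0.14 in *Mettl3* OE and -0.28 in Control OE, against -0.05, -0.03 and -0.08 for all genes. *Trp53* held 37.0, 36.0 and 38.6 FPKM on day 9, against 54.4, 46.9 and 49.7 FPKM on day 6 in Control OE, without overlap (log2 change -0.42 ± 0.097, adjusted p = 0.00255, limma). It also fell in *Mettl3* OE, by 0.43, while in *Mettl14* OE its change of -0.25 was not called (adjusted p = 0.0541). *Mdm2* held 26.5, 24.9 and 26.0 FPKM on day 9, against 38.6, 34.3 and 35.1 FPKM on day 6 in Control OE, and fell in all 3 arms, by 0.45 in *Mettl14* OE, 0.31 in *Mettl3* OE and 0.47 in Control OE.

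*Cdkn1a* and *Ccng1* fell in *Mettl14* OE and Control OE. *Cdkn1a* had 164, 166 and 167 FPKM on day 9, against 246, 212 and 224 FPKM on day 6 in Control OE (log2 change -0.45 ± 0.083). In *Mettl3* OE it had 167, 180 and 176 FPKM on day 9, against 181, 192 and 179 FPKM on day 6, and was not called (-0.08). *Ccng1* had 96.9, 75.3 and 91.6 FPKM on day 9, against 174, 121 and 129 FPKM on day 6 in Control OE (-0.67), where day 6 replicate 1 was the highest of the 6 libraries. In *Mettl3* OE the change of *Ccng1* was -0.34, just short of a call (adjusted p = 0.0633, limma). *Btg2* rose in all 3 arms, by 0.49 in *Mettl14* OE, 0.61 in *Mettl3* OE and 0.51 in Control OE, but in *Mettl14* OE not without day 9 replicate 1 (adjusted p = 0.0573). In Control OE its libraries held 76.8, 87.1 and 86.5 FPKM on day 9, against 75.8, 51.9 and 49.8 FPKM on day 6, so that 1 library of day 6 came close to those of day 9.

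Among the genes called in 1 arm or in the *Mettl* arms, *Plk2*, a polo-like kinase, had 41.2, 41.4 and 45.5 FPKM on day 9, against 31.4, 31.6 and 33.2 FPKM on day 6 in *Mettl3* OE (0.40), a call that none of the 6 refits without 1 library kept. *Ddb2* had 2.08, 1.94 and 1.88 FPKM, against 0.95, 1.15 and 0.691 FPKM on day 6 in *Mettl14* OE (0.63). *Rps27l* had 70.9, 156 and 74.8 FPKM, against 164, 171 and 212 FPKM on day 6 in *Mettl14* OE (-0.94), where day 9 replicate 2 stood near the libraries of day 6.

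*Gdf15* changed most at this step. It held 2.3, 2.68 and 2.2 FPKM on day 9, against 11, 4.96 and 6.96 FPKM on day 6 in Control OE, 2.68, 2.01 and 2.14 against 8.76, 7.26 and 5.57 FPKM in *Mettl14* OE, and 2.36, 2.86 and 1.88 against 8.79, 5.99 and 5.81 FPKM in *Mettl3* OE. The days did not overlap in any arm, and the log2 changes were -1.31 ± 0.21 in *Mettl14* OE, -1.21 ± 0.21 in *Mettl3* OE and -1.29 ± 0.21 in Control OE (adjusted p = 0.000257, 0.00027 and 0.000214 in that order, limma). *Bbc3*, the gene of PUMA, fell by 0.49, 0.83 and 0.49 in the 3 arms in the same order, and in *Mettl3* OE its libraries held 6.5, 6.5 and 5.49 FPKM on day 9, against 12.2, 10.8 and 12.2 FPKM on day 6. *Aen* had 12, 12.8 and 11.7 FPKM on day 9, against 20.3, 20.7 and 17.9 FPKM on day 6 in *Mettl3* OE. It fell by 0.39, 0.65 and 0.54 in the same order of arms, *Tnfrsf10b*, the gene of a death receptor for TRAIL, by 0.33, 0.38 and 0.48, and *Zmat3*, which encodes an RNA-binding protein, by 0.24, 0.27 and 0.34. *Ercc5* was the repair gene that fell in all 3 arms, by 0.26, 0.26 and 0.42, though in *Mettl14* OE not without day 6 replicate 2 or day 9 replicate 3 (adjusted p = 0.0612 and 0.0654) and in *Mettl3* OE not without day 6 replicate 1 (0.0536). *Pmaip1* went up by 0.54 in *Mettl14* OE, where the call was lost in 4 of 6 refits without 1 library, and by 0.76 in *Mettl3* OE, and changed by 0.43 without a call in Control OE.

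Of the falls of this step, 10 of 15 in *Mettl14* OE, 9 of 11 in *Mettl3* OE and 12 of 15 in Control OE held in each of 6 refits without 1 library. Without Control OE day 6 replicate 1, 5 members rose in Control OE in place of 1. Without *Mettl14* OE day 9 replicate 1, 2 rose in *Mettl14* OE in place of 4. The cell-cycle genes that p21 is known to repress fell at the same step, 16 of 19 in *Mettl14* OE, 17 in *Mettl3* OE and 17 in Control OE, led in Control OE by *Rrm2* (-1.12), *Plk1* (-0.87) and *Ccna2* (-0.77), with medians of -0.48, -0.73 and -0.59. Of the 23 further p53 targets tested, 6, 7 and 6 rose and 7, 8 and 8 fell in the arms in that order. Of all genes, 16.2%, 21.2% and 14.0% rose and 21.7%, 24.2% and 26.0% fell, in the same order of arms. Fibroblast and epithelial markers rose in the same step, all 10 of each list in Control OE: the fibroblast markers summed to 2047 to 2430 FPKM on day 9 and 1041 to 1355 FPKM on day 6, and the epithelial markers to 541 to 658 FPKM on day 9 and 312 to 356 FPKM on day 6. Their part in the falls of the members was not tested.

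Whether the step differed between arms was tested with an interaction term. For the step from day 6 to 9, limma called 0 of 32 members for *Mettl14* OE, against 0% of all genes higher and 0% lower, and 0 for *Mettl3* OE, against 0.0498% higher and 0.0166% lower. At an unadjusted p under 0.05 there were 0 members for *Mettl14* OE, against 1.64% of all genes, and 2 for *Mettl3* OE, against 10.6%. The smaller fall of *Cdkn1a* in *Mettl3* OE gave a difference of 0.37 ± 0.12 on the log2 scale (adjusted p = 0.241), so the lost call in that arm is not shown to be a difference between the arms.

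**Figure D3:**
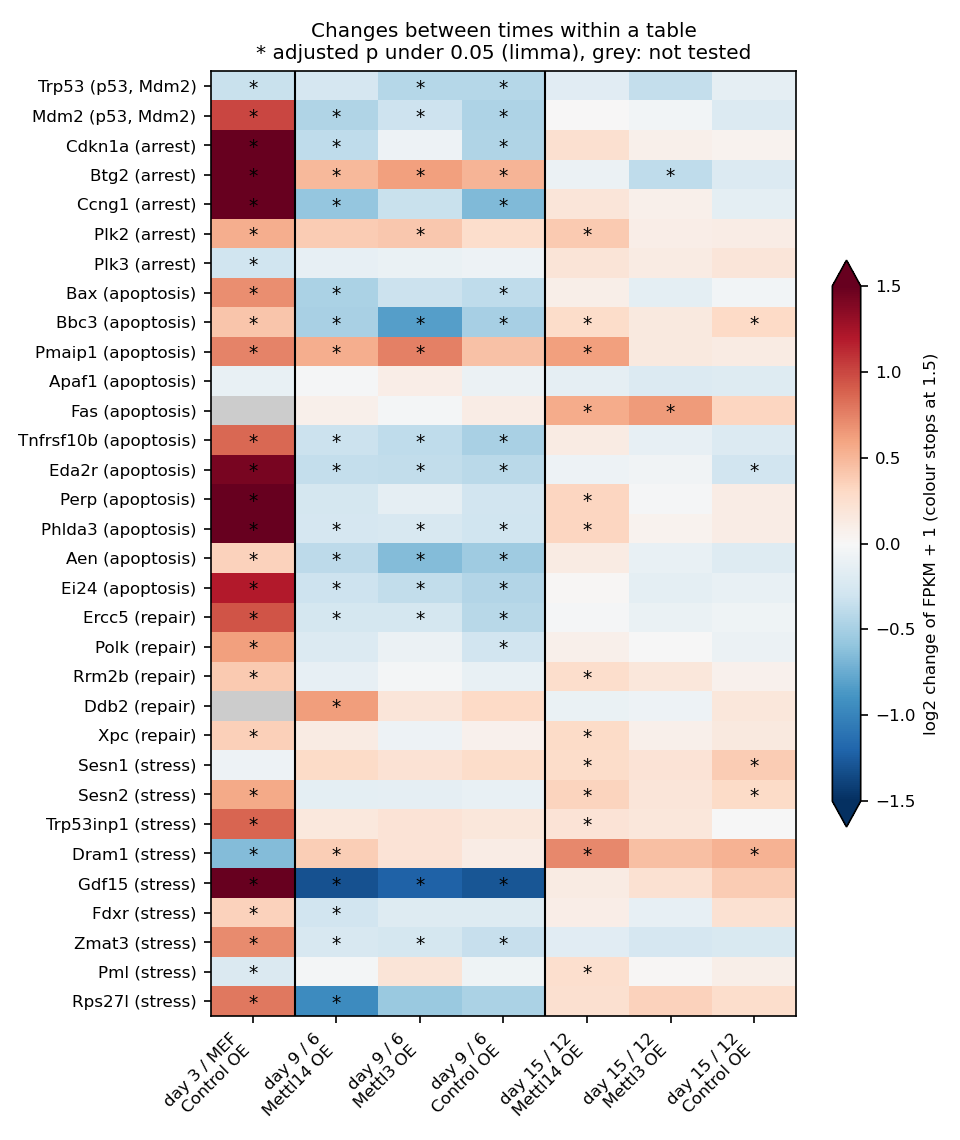
Log2 change of FPKM + 1 of the 32 members (rows, ordered by role) from MEF to day 3 in Control OE, from day 6 to 9 and from day 12 to 15 in each arm (columns), red for higher and blue for lower on the later day, with an asterisk at a limma adjusted p under 0.05. The first column is mostly red (24 of 30 rose), the middle block mostly blue, and the rises from day 12 to 15 are mostly lost with another scaling between libraries, as the text gives.

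Between days 12 and 15 the calls depended on the scaling. In *Mettl14* OE 13 of 32 members rose (40.6%) and none fell with limma, against 30.8% and 2.41% of 12347 genes, and 0 fell at an unadjusted p under 0.05, against 4.17% of all genes. In *Mettl3* OE 1 rose and 1 fell, against 4.16% and 3.42%, and in Control OE 4 rose and 1 fell, against 15.1% and 2.68%. The median log2 change over all genes was 0.15 in *Mettl14* OE and 0.09 in Control OE, and with median-ratio scaling it was 0.00 in both. With that scaling 4 members rose and 6 fell in *Mettl14* OE, and 3 rose and 10 fell in Control OE. With quantile normalization 4 rose and 7 fell in *Mettl14* OE, and 4 rose and 10 fell in Control OE. The shares of all genes above belong to the fit without these scalings. None is given with them, so the scaled counts are not set against all genes. *Dram1*, *Pmaip1*, *Fas* and *Sesn2* were the 4 in *Mettl14* OE that rose under all 3 scalings and in each refit without 1 library.

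*Dram1* had 2.97, 3.47 and 2.32 FPKM on day 15, against 1.05, 1.78 and 1.30 FPKM on day 12 in *Mettl14* OE (log2 change 0.72 ± 0.15, adjusted p = 0.002, limma). *Pmaip1* had 17.1, 15.9 and 14.5 FPKM, against 9.17, 10.9 and 10.0 FPKM on day 12 (0.61 ± 0.098). *Fas*, the death receptor, had 4.95, 5.23 and 6.03 FPKM, against 3.65, 3.10 and 3.31 FPKM on day 12 (0.55 ± 0.13). *Sesn2*, like *Sesn1* a regulator of mTORC1, had 12.1, 11.6 and 9.77 FPKM, against 9.18, 8.14 and 8.48 FPKM on day 12 (0.34). The days did not overlap in any of these 4 genes. *Plk2* had 60.9, 57.9 and 64.8 FPKM on day 15, against 43.9, 56.6 and 39.5 FPKM on day 12 in *Mettl14* OE (0.40), and *Perp* 120, 120 and 110 FPKM, against 92.8, 104 and 83.5 FPKM (0.33), both called with neither of the other scalings. *Trp53inp1* rose by 0.20 in *Mettl14* OE and stood at -0.012 with quantile normalization. *Fas* also rose in *Mettl3* OE, with 5.17, 4.86 and 3.83 FPKM on day 15, against 2.44, 2.19 and 3.22 FPKM on day 12 (0.64), and *Btg2* fell there by 0.38, a call kept in the refit without *Mettl3* OE day 12 replicate 3 and lost in the other 5. In Control OE *Sesn1* rose with 7.50, 6.77 and 7.48 FPKM, against 5.63, 5.36 and 5 FPKM on day 12 (0.38), in every refit and scaling. *Dram1* (0.52), *Sesn2* (0.29) and *Bbc3* (0.30) also rose in Control OE and *Eda2r* fell by 0.29, and each of these was lost in 3 or 4 of 6 refits without 1 library. *Trp53*, *Mdm2* and *Cdkn1a* were called in no arm, with log2 changes from -0.36 to 0.24.

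Without *Mettl14* OE day 12 replicate 3, day 15 replicate 1 or day 15 replicate 2, the number that rose in that arm was 5, 6 and 6. Without Control OE day 12 replicate 2, day 15 replicate 1 or day 15 replicate 3, the number that rose in Control OE was 1, 2 and 1. The number that fell there was 4 without day 12 replicate 2, 2 without day 15 replicate 3, and 0 without day 12 replicate 1 or 3 or day 15 replicate 2. In *Mettl3* OE 2 rose without day 15 replicate 2. Macrophage markers were higher on day 15: their summed level in *Mettl14* OE was 41.9 to 79.8 FPKM on day 15 and 12.3 to 21.7 FPKM on day 12, and all 9 tested rose, with none of the list at 0 in all 3 libraries. In *Mettl3* OE the sums were 24.2 to 29.5 and 13.3 to 14.8 FPKM, and in Control OE 36.1 to 62.9 and 13.2 to 18.2 FPKM. *Dram1* and *Fas* are also expressed in macrophages, and the part of such cells in their rise was not tested. Of 23 further p53 targets tested, 15 rose in *Mettl14* OE, 4 in *Mettl3* OE and 9 in Control OE, against 30.8%, 4.16% and 15.1% of all genes, and 1 fell in each arm, the cytokine gene *Lif* among those that rose in *Mettl14* OE (1.02). With median-ratio scaling 11, 8 and 8 of them rose in the arms in that order, and with quantile normalization 9, 5 and 8. No share of all genes is given for either scaling. The test of the difference between arms called 0 members for *Mettl14* OE, against 0% of all genes higher and 0% lower, and 0 for *Mettl3* OE, against 0% and 0% (limma). At an unadjusted p under 0.05 there were 4 members for *Mettl14* OE, against 4.69% of all genes, and 1 for *Mettl3* OE, against 6.46%. The largest of these differences, 0.49 ± 0.14 for *Pmaip1* in *Mettl14* OE, had an adjusted p of 0.908.

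The comparison of *Mettl3* OE with Control OE asks what the overexpressed gene added to OSKM. Averaged over the 5 days, 9 of 32 members were lower in *Mettl3* OE (28.1%) and 1 was higher (3.12%), against 22.8% and 12.8% of 12738 genes, so the share that was lower lay near that of all genes. The median over the members was -0.05 on the log2 scale, against -0.02 for all genes. The changes were small. The sestrin gene *Sesn1* averaged 0.699, 2.8, 3.43, 4.60 and 5.47 FPKM in *Mettl3* OE on days 3, 6, 9, 12 and 15, against 0.918, 3.77, 4.68, 5.33 and 7.25 FPKM in Control OE, lower on each day (-0.28 ± 0.053, adjusted p = 9.24e-05, limma). *Sesn2* averaged 4.63, 10.1, 9.10, 8.59 and 9.85 FPKM, against 5.09, 11.9, 10.9, 10.7 and 13.3 FPKM in Control OE (-0.25 ± 0.043). *Zmat3* averaged 10.6, 20.8, 17.1, 14.4 and 12.0 FPKM, against 11.5, 24.9, 19.4, 18.7 and 15.7 FPKM in Control OE (-0.25), and *Trp53inp1* 4.54, 12.0, 13.9, 16.1 and 18.2 FPKM, against 5.09, 16.1, 17.9, 19.8 and 19.8 FPKM (-0.25). These 4 genes were lower on all 5 days and kept the call in each refit without 1 replicate number and under both other scalings.

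*Trp53* (-0.18), *Ccng1* (-0.22), *Eda2r* (-0.19), *Bbc3* (-0.18) and *Dram1* (-0.16) were also lower over the 5 days. Without replicate 3 the calls of *Ccng1* and *Eda2r* were lost (adjusted p = 0.142 and 0.0707), without replicate 1 or 3 those of *Trp53* (0.149 and 0.0896) and *Bbc3* (0.0836 and 0.0924), and without replicate 1 or 2 that of *Dram1* (0.121 and 0.105), and without replicate 3 the number of members that were lower was 5. *Mdm2* (-0.04) and *Cdkn1a* (-0.05) were not called. *Perp* was the 1 member that was higher, on each of the 5 days, with means of 56.5, 142, 128, 124 and 121 FPKM in *Mettl3* OE, against 53.1, 113, 92.8, 97.8 and 106 FPKM in Control OE (0.28 ± 0.047, adjusted p = 1.52e-05, limma). In the same comparison 8 of the 10 epithelial markers were higher and 8 of the 10 fibroblast markers lower. On day 9 the epithelial markers summed to 852 to 915 FPKM in *Mettl3* OE, against 541 to 658 FPKM in Control OE, and the fibroblast markers to 1492 to 1645 FPKM, against 2047 to 2430 FPKM. What part this had in the values of *Perp* or of the members that were lower was not tested.

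By day, the calls between *Mettl3* OE and Control OE were few. On day 3, 0 members were higher and 1 lower, against 3.54% and 5.96% of 9863 genes, the lower one being *Gdf15* with 3.01, 3.93 and 3.91 FPKM in *Mettl3* OE, against 5.26, 4.29 and 5.20 FPKM in Control OE (-0.36), a call lost in 4 of 6 refits, and 0 members were lower without *Mettl3* OE replicate 1 or Control OE replicate 1 or 3. On day 6, limma called 0 in either direction, against 1.89% and 2.43% of 11545 genes. At an unadjusted p under 0.05, 2 were higher and 3 lower, against 9.58% and 13.9% of all genes. *Cdkn1a* then held 181, 192 and 179 FPKM in *Mettl3* OE, against 246, 212 and 224 FPKM in Control OE, without overlap and without a call (-0.30, adjusted p = 0.0802). On day 9, 1 was higher and 3 were lower, against 5.24% and 4.10% of 11792 genes. *Perp* held 120, 133 and 132 FPKM in *Mettl3* OE, against 87.7, 93.4 and 97.2 FPKM in Control OE (0.46 ± 0.11, adjusted p = 0.0213), and *Bbc3* 6.5, 6.5 and 5.49 FPKM, against 8.93, 7.78 and 9.59 FPKM (-0.45). *Sesn1* (-0.36) and *Trp53inp1* (-0.34) were lower as well, and their libraries did not overlap either. None of these 4 calls held in all 6 refits without 1 library: *Perp* lost it in 5, *Sesn1* and *Trp53inp1* in 4 each, and *Bbc3* without Control OE day 9 replicate 1 or replicate 3 (adjusted p = 0.052 and 0.059). Without either of these 2 libraries 0 members were lower, and without *Mettl3* OE day 9 replicate 1 or 2 it was 1.

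On day 12, 0 members were higher and 1 was lower, against 2.96% and 2.51% of 11933 genes. *Eda2r* held 8.07, 7.82 and 7.84 FPKM in *Mettl3* OE, against 11.4, 9.37 and 11.6 FPKM in Control OE (-0.40). Control OE day 12 replicate 2 stood below the other 2 libraries of its group here, and without it 8 members were lower, while without any other 1 of the 6 libraries 0 were. The share of all genes that was lower without it is not given. On day 15, 0 were higher and 5 lower (15.6%), against 2.67% and 12.1% of 12134 genes. With median-ratio scaling 4 were higher and 3 lower, and with quantile normalization 1 and 3, with no share of all genes given for either. *Trp53* held 17.5, 23.2 and 19.2 FPKM in *Mettl3* OE, against 30.4, 27.8 and 31.6 FPKM in Control OE, without overlap (-0.57 ± 0.10, adjusted p = 0.00314, limma). *Sesn2* held 9.25, 10.2 and 10.1 FPKM, against 13.5, 13 and 13.3 FPKM in Control OE (-0.40 ± 0.083, adjusted p = 0.00717). *Zmat3* held 11.7, 12.8 and 11.4 FPKM, against 15.8, 14.5 and 16.8 FPKM in Control OE (-0.36). *Trp53* and *Sesn2* kept the call in each of 6 refits without 1 library, *Zmat3* in all but the one without *Mettl3* OE day 15 replicate 3 (adjusted p = 0.0548), and these 3 kept it under both other scalings. *Sesn1* (-0.36) and *Bbc3* (-0.31) were lower but lost the call in 4 of 6 refits each and under both other scalings. Without *Mettl3* OE day 15 replicate 3, Control OE day 15 replicate 1 or Control OE day 15 replicate 3, the number that was lower was 2, 3 and 3. *Trp53* lies beside the antisense gene *Wrap53*, and the sources do not say whether strand was used in the quantification, so reads of the pair may not be told apart. *Wrap53* was itself lower in *Mettl3* OE on day 15 (-0.30, adjusted p = 0.0291, limma), and on day 9 against day 6 it fell in *Mettl14* OE (-0.32, 0.0132), *Mettl3* OE (-0.50, 0.000489) and Control OE (-0.30, 0.0158). Of the 7 pluripotency markers tested on day 15, 6 were lower in *Mettl3* OE, the 10 of the list summing to 10.4 to 14.6 FPKM, against 31.0 to 41.7 FPKM in Control OE, with none at 0 in all 3 libraries. Of 10 fibroblast markers 4 were lower, and of 10 epithelial markers 2 were higher. The part of the marked cells in the members that were lower was not tested.

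*Mettl14* OE was compared with the same Control OE libraries, so the 2 comparisons share them. On single days limma called 0 members in either direction, with 1, 3, 0, 13 and 8 at an unadjusted p under 0.05 on days 3, 6, 9, 12 and 15, against 3.42%, 7.15%, 6.18%, 24.5% and 17% of all genes at that p. Of all genes, 0.0101% were called higher and 0.0101% lower on day 3, 0.00866% and 0% on day 6, 0.0170% and 0% on day 9, 0.0168% and 0% on day 12, and 0.420% and 0.635% on day 15. On day 12 the members ranged from -0.46 to 0.37 on the log2 scale. Without Control OE day 12 replicate 2, 11 members were lower on that day, and without *Mettl14* OE day 9 replicate 2, 2 were lower on day 9. The shares of all genes in these refits are not given. *Cdkn1a* held 192, 202 and 181 FPKM in *Mettl14* OE on day 6, against 246, 212 and 224 FPKM in Control OE, without overlap (-0.24, adjusted p = 0.545). On day 15 *Trp53* held 26.2, 24.5 and 21.3 FPKM in *Mettl14* OE, against 30.4, 27.8 and 31.6 FPKM in Control OE (-0.31, adjusted p = 0.158), and *Pmaip1* was the member with the largest positive difference, 0.28 (adjusted p = 0.104).

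Averaged over the 5 days, 8 of 32 members were lower in *Mettl14* OE (25%) and none was higher, against 13% and 0.118% of all genes called by limma, and 0 were higher at an unadjusted p under 0.05, against 0.683% of all genes. The 8 were *Ccng1* (-0.19), *Sesn1* (-0.17), *Trp53* (-0.16), *Zmat3* (-0.15), *Eda2r* (-0.14), *Ei24* (-0.14), *Sesn2* (-0.13) and *Tnfrsf10b* (-0.13). *Ccng1* averaged 138, 122, 81.6, 49.2 and 55.9 FPKM in *Mettl14* OE on days 3, 6, 9, 12 and 15, against 143, 141, 87.9, 68.2 and 61.4 FPKM in Control OE. The median over the members was -0.08 and over all genes -0.06, and with median-ratio scaling or quantile normalization, which bring the median over all genes to 0.00, 0 of the 32 members were called in either direction. Without replicate 1 or replicate 3 the number that was lower was 0, and without replicate 2 it was 16. No share of all genes is given for these refits, so whether 16 members lie above it is not shown. The same scalings left 8 of the 9 lower members and *Perp* called in *Mettl3* OE.

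**Figure D4:**
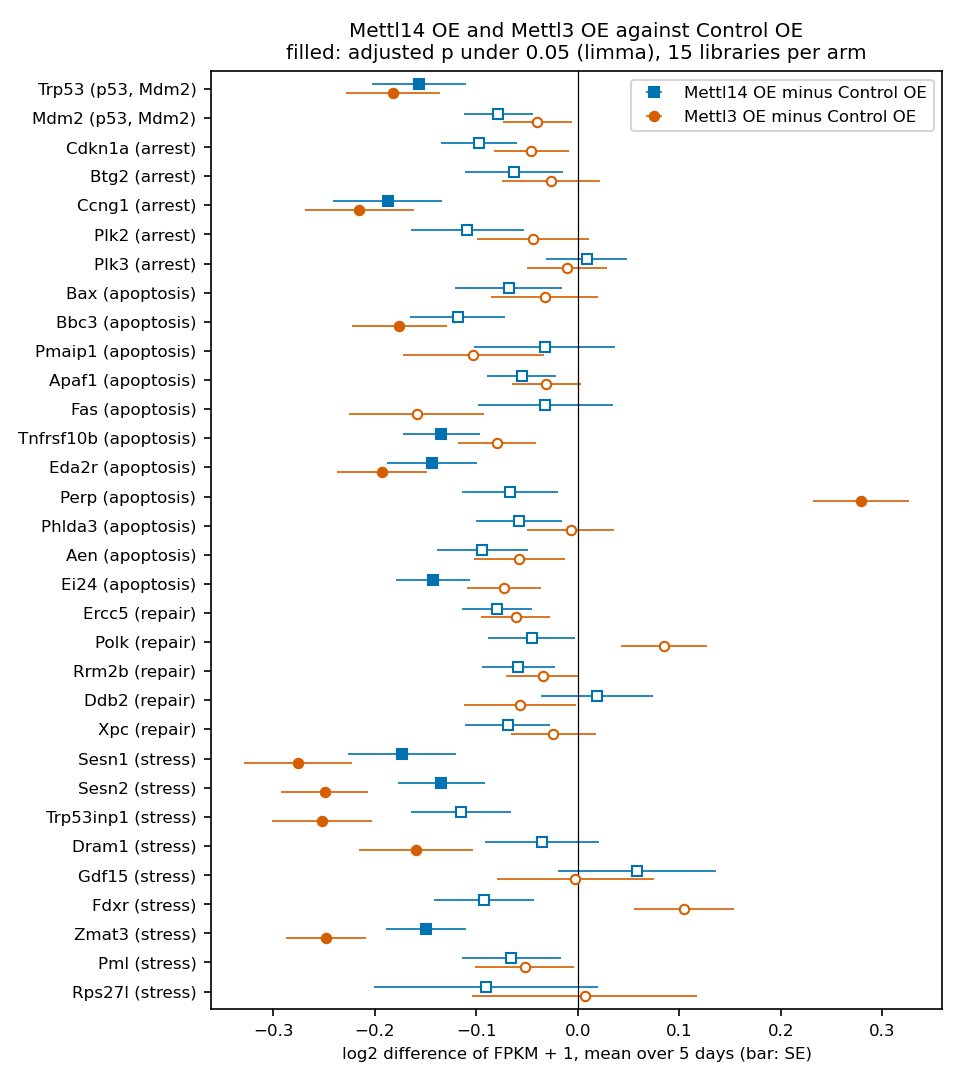
Log2 difference of FPKM + 1 from Control OE, averaged over 5 days, for the 32 members in *Mettl14* OE (squares) and *Mettl3* OE (circles), with SE as bars and filled symbols at a limma adjusted p under 0.05. *Perp* in *Mettl3* OE (0.28) is the 1 filled symbol above 0, and the filled squares of *Mettl14* OE (-0.13 to -0.19) lose their calls with another scaling between libraries.

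Set directly against each other over the 5 days, *Mettl14* OE had 2 members higher and 3 lower than *Mettl3* OE, against 7.97% and 22.2% of all genes. *Perp* averaged 52.0, 99.3, 82.3, 93.3 and 117 FPKM in *Mettl14* OE, against 56.5, 142, 128, 124 and 121 FPKM in *Mettl3* OE, lower on each day (-0.35 ± 0.047, adjusted p = 7.67e-07, limma). *Fdxr*, a mitochondrial reductase gene, averaged 1.12, 3.66, 2.83, 2.52 and 2.77 FPKM, against 1.66, 4.39, 3.71, 2.99 and 2.68 FPKM in *Mettl3* OE (-0.20), and these 2 calls held in each refit without 1 replicate number. *Polk* was lower (-0.13), and *Trp53inp1* (0.14) and *Sesn2* (0.11) were higher, but each lost the call without replicate 2 or replicate 3, *Sesn2* also without replicate 1. The number of members that were higher was 1, 0 and 1 without replicate 1, 2 and 3, the 1 without replicate 3 being another member. *Trp53*, *Mdm2* and *Cdkn1a* did not pass the test (0.03, -0.04 and -0.05).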

How the data were processed

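Poly(A) RNA of 48 libraries in 16 groups was sequenced. The values analysed are FPKM, which the authors made with TopHat2 2.1.1 and Cufflinks 2.2.1 on mm9 according to the submitters' processing notes, and deposited as 3 tables in 1 sheet with 0 columns of other series. An exact copy of 1 line was dropped, leaving 24010 genes. Read counts were not used here, so depth was estimated from the smallest FPKM steps of 1667 genes with a single transcript of at least 2000 bases, and is approximate. A gene entered a fit where 3 or more of its libraries reached 1 FPKM, and was tested with limma 3.58.1 (R 4.3.3; trend and robust moderation) on log2(FPKM + 1), which gives the SE printed. Arms were compared in fits of the 9 libraries of a day, times in fits of the 12 or 18 libraries of a table, and means over 5 days in a fit of all 48. A pseudocount of 0.1 FPKM, no filter, a filter at 5 FPKM, median-ratio scaling, quantile normalization, a replicate block, a fit of all 48 libraries and 90 refits without a replicate were tried. Both scalings were applied to the other gene lists after seeing the data. The fits were tested on simulated data. Members are given per library when they are among the 3 largest changes of their role among those called, or are *Trp53*, *Mdm2* or *Cdkn1a*, and up to 3 genes of each other list are named; members named beyond this were chosen after their values were seen. The members and lists were chosen with earlier results of these data known. Promoter sequences come from RefSeq (GRCm38.p6), and no coordinates of mm9 are given. Figures were drawn with matplotlib 3.10.9. The result of 1 gene of the list of further p53 targets is not reported here.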

Additional observations from a re-analysis of the deposited data

How the results depend on the processing

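Counts are members called, and why they moved was not tested unless said. The shares of all genes given above belong to the main fits, and none is given for these settings or refits. With median-ratio scaling, *Mettl3* OE against Control OE had 1 lower on day 6, 5 lower on day 9, 1 higher and 5 lower on day 12, 4 higher and 3 lower on day 15 and 3 higher over 5 days. *Mettl14* OE against Control OE then had 1 higher and 1 lower on day 15 and 0 lower over 5 days, and 4 higher against *Mettl3* OE. From day 6 to 9, 3 rose in Control OE, and from day 12 to 15, 4 rose and 6 fell in *Mettl14* OE, 2 rose and 4 fell in *Mettl3* OE and 10 fell in Control OE. With quantile normalization, *Mettl3* OE had 1 higher on day 3, 5 lower on day 9, 6 lower on day 12, 1 higher and 3 lower on day 15 and 3 higher over 5 days. *Mettl14* OE had 1 higher and 2 lower on day 15, 0 lower over 5 days and 5 higher against *Mettl3* OE. From day 6 to 9, 2 rose in Control OE, and from day 12 to 15, 4 rose and 7 fell in *Mettl14* OE, 3 fell in *Mettl3* OE and 10 fell in Control OE. *Trp53inp1* from day 12 to 15 in *Mettl14* OE was then -0.012 (adjusted p = 0.914, limma), the 1 of 1590 values of single members with a turned sign, while 1344 kept their call and 245 lost it. Without a filter, *Mettl3* OE had 0 lower on days 3 and 12 and 3 on day 15, *Mettl14* OE 5 lower over 5 days and 0 higher against *Mettl3* OE, and 0 fell from day 12 to 15 in Control OE. With a filter at 5 FPKM, 2 fell from MEF to day 3 and 2 rose from day 6 to 9 in *Mettl14* OE. With all 48 libraries in the fit, *Mettl3* OE had 0 lower on day 3, 1 higher and 4 lower on day 6 and 1 higher and 4 lower on day 12, and *Mettl14* OE 7 lower on day 12. Then 3 rose from day 6 to 9 in Control OE, and 2 rose and 2 fell from day 12 to 15 in *Mettl3* OE.

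Replicate numbers did not pair the libraries: in 0 of 36 pairs of groups was every correlation of same-numbered libraries over 0.1 (range -0.301 to 0.341). With a replicate block, *Mettl3* OE had 0 lower on day 3, 3 lower on day 6, and 0 higher and 1 lower on day 9, and 2 rose from day 6 to 9 in Control OE.

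Leaving out 1 library, or 1 replicate number for the means, *Mettl3* OE had 0 to 1 lower on day 3, 0 to 1 higher and 0 to 3 lower on day 9, 0 to 8 lower on day 12, 2 to 5 lower on day 15 and 5 to 11 lower over 5 days. *Mettl14* OE had 0 to 2 lower on day 9, 0 to 11 on day 12 and 0 to 16 over 5 days, and 0 to 1 higher against *Mettl3* OE. From MEF to day 3, 2 to 4 fell. From day 6 to 9, 2 to 5 rose in *Mettl14* OE and 1 to 5 in Control OE. From day 12 to 15, 5 to 11 rose in *Mettl14* OE, 1 to 2 rose and 0 to 1 fell in *Mettl3* OE, and 1 to 4 rose and 0 to 4 fell in Control OE. Control OE day 12 replicate 2, which moved the counts of day 12 most, had 38.8% of its FPKM in genes of small RNAs, against 31.1% and 27.8% in replicates 1 and 3. On the same day the shares were 35.8%, 44.3% and 36.8% in *Mettl14* OE and 32.7%, 39.0% and 30.1% in *Mettl3* OE. What part these shares had in the counts was not tested.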
